A study of Mus musculus with 10 samples.

Results

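Mybl1, Tcfl5, Ovol1, Rfx2, Sox5, Sox30, Crem and Tbpl1 encode 8 transcription regulators that act while male germ cells pass through pachytene, the long stage of meiotic prophase in which homologous chromosomes are fully paired, and then develop as haploid spermatids. They were picked by gene symbol, as the rows of 4 deposited expression tables whose gene name equals a member, and make up 8 of the 36806 rows in each table. The series compared C57BL/6 mice with the Ago4 genotypes Ago4+/+ and Ago4-/-. Its mRNA libraries came from pachytene cells and from leptotene/zygotene cells (the stages just before pachytene) of males 70 days old, and from entire testes taken at 3 and 8 days of age, with 1 library per genotype in each of these 4 groups. Small RNA libraries of pachytene cells, 1 per genotype, were not used here. The tables are named for day 3, pre-meiotic, leptotene/zygotene and pachytene material. The pre-meiotic table is whole testis by the series' design text, and it was not assigned an age.

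Male germ cells turn on a large set of genes around pachytene. MYBL1 (also called A-MYB) is a DNA-binding activator at the head of this change and of the genes that make piRNAs, small RNAs that guard the germline. TCFL5, a basic helix-loop-helix factor, and OVOL1, a zinc finger repressor, are needed as spermatocytes move through pachytene. RFX2, SOX5 and SOX30 turn on genes of cilia, flagella and early spermatids. CREM and TBPL1 act last: CREM drives genes such as those for protamines, the proteins that pack sperm DNA, and TBPL1 is a relative of the TATA-binding protein TBP.

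Each table gives FPKM, a level scaled to transcript length and sequencing depth, for 2 conditions that it names only by number. The genotype behind each number is not stated in the labels or the tables, and nothing says that the order is the same in each table. Differences are therefore given as condition 2 against condition 1 of the same table, with no genotype attached. With 1 library per condition there is no replicate check, no SD can be given, and a q-value of the authors compares 2 libraries and not 2 genotypes. The tables were normalised separately, so a level in a table was set beside a level in another without any test. Read counts are not given, so the depth behind each value is unknown.

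The marker genes of the leptotene/zygotene table put its label in doubt. Prm2, a protamine gene of late spermatids, stood at 14183 and 18800 FPKM there, against 1989 and 2950 FPKM in the pachytene table. Markers of leptotene and zygotene cells were mixed. Of 11, 5 (among them the recombinase gene Dmc1) had both values below both pre-meiotic values, 4 had both above, and 2 overlapped. Dmc1 stood at 3.02 and 3.73 FPKM in that table, against 24.1 and 12.9 FPKM in the pre-meiotic table. The meiotic cohesin gene Rec8 had the reverse order, at 67.7 and 53.2 against 28.9 and 21.1 FPKM. The 11 genes summed to between 384 and 438 FPKM in the leptotene/zygotene table and to between 314 and 506 FPKM in the pre-meiotic table, so the sums overlapped. Stra8, which marks entry into meiosis, stood at 8.36 and 6.43 against 124 and 78.6 FPKM. All 14 spermatid markers together summed to between 58385 and 69037 FPKM in the leptotene/zygotene table and to between 9918 and 11789 FPKM in the pachytene table. In the pre-meiotic table the sum was between 83.0 and 87.2 FPKM. The pachytene table was thus not free of spermatid transcripts either, and their part in the levels of the members there was not tested. The leptotene/zygotene and pachytene tables are called spermatocyte tables below, by their labels, and counts and ratios over both are also given for pachytene alone. Somatic cells were scarce in both: 9 Sertoli cell markers summed to at most 134.6 FPKM there, against 2828 or more in the whole testis tables. Fewer cells of a type and less RNA per cell cannot be told apart in these bulk libraries.

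**Figure D1:**
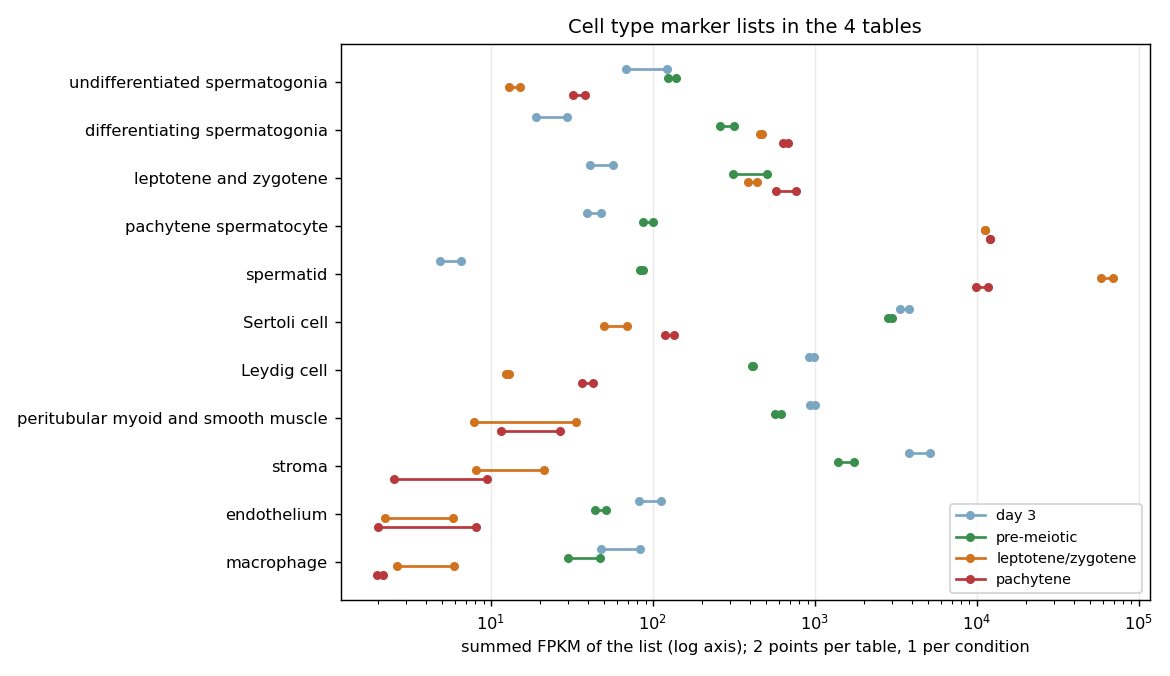
Summed FPKM (log axis) of 11 lists of cell type markers, with 1 point per condition and a line joining the 2 conditions of a table. Spermatid markers are highest in the table labelled leptotene/zygotene, from 58385 to 69037 FPKM, and the somatic lists are lowest in both spermatocyte tables.

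All 8 members were higher in the spermatocyte tables than in whole testis of young mice. For each member, each of the 4 spermatocyte values lay above each of the 4 whole testis values. Of 22082 genes with at least 1 FPKM in any column, 23.1% showed this order. With the leptotene/zygotene table left out the count was again 8 of 8, against 27.3% of all genes. The mean of the 4 spermatocyte values exceeded the mean of the 4 whole testis values by 2.75-fold for Mybl1, the smallest ratio among the members, and by 53.7-fold for Sox30, the largest. From pachytene alone these ratios were 3.87 and 46.2, again the smallest and the largest. On the log2(FPKM + 0.1) scale these differences ran from 1.45 to 5.61, while the median over all 22082 genes was -1.30. For pachytene alone they ran from 1.95 to 5.40, with -1.17 over all genes. Levels of the 8 genes in the pachytene table ranged from 22.0 FPKM (Ovol1) to 563 FPKM (Tbpl1). Tbpl1 and Crem were thus among the upper 3% of genes at 1 FPKM or more there, and Ovol1 was near the 63rd to 65th percentile.

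**Figure D2:**
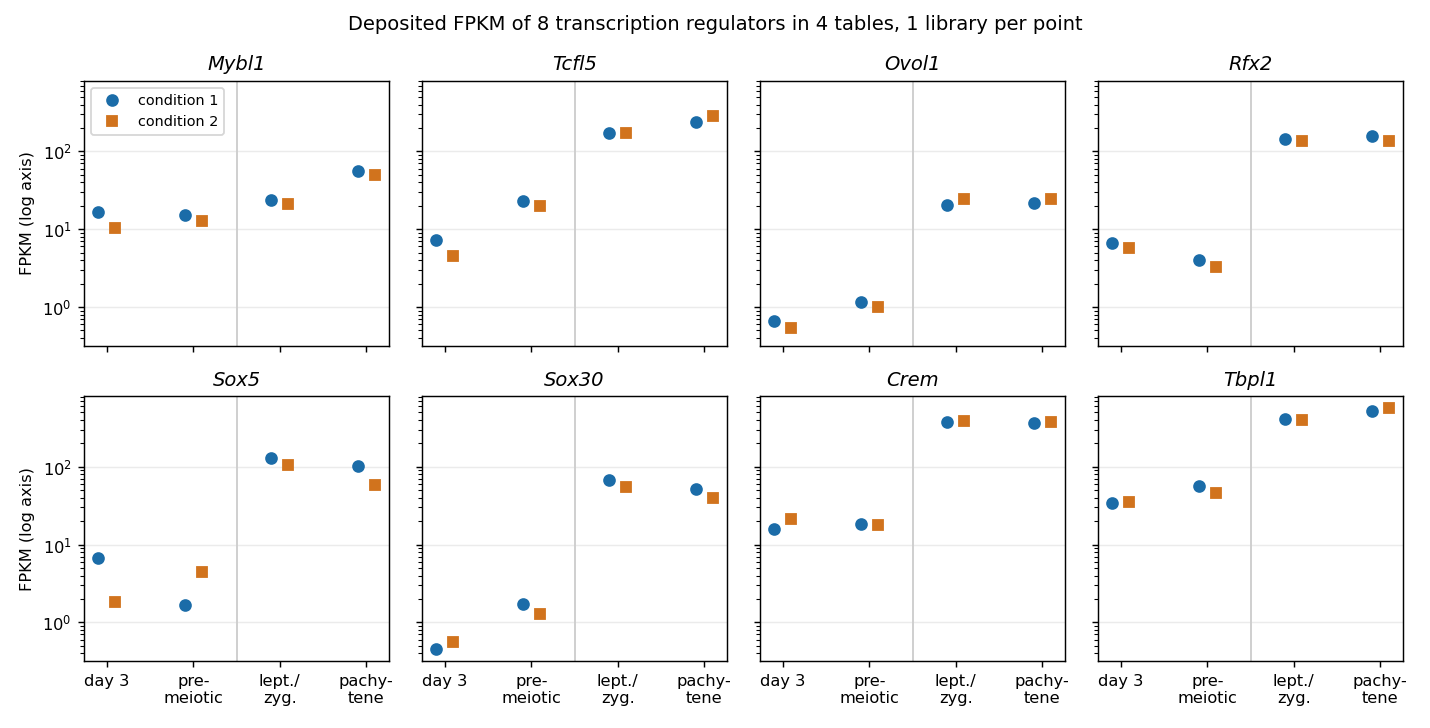
FPKM (log axis) of each member in the 4 tables, with 1 point per library, circles for condition 1 and squares for condition 2. To the right of the grey line every point of a member lies above every point to its left, and the step is smallest for Mybl1.

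Mybl1 was the member with the flattest course. Its locus in the deposited tables, whose build no label or header states, is chromosome 1, 9657496 to 9690290. Mybl1 stood at 16.5 and 10.4 FPKM at day 3 (conditions 1 and 2), at 15.2 and 12.8 FPKM in the pre-meiotic table, at 23.7 and 20.8 FPKM in the leptotene/zygotene table and at 56.0 and 50.4 FPKM in the pachytene table. The day 3 and pre-meiotic values overlapped, and the pachytene pair was 2.39-fold above the leptotene/zygotene pair. Among the other MYB genes, Mybl2, a factor of dividing cells, ran the opposite way, from 31.8 and 21.7 FPKM at day 3 to 10.8 and 6.195 FPKM in pachytene. Myb stayed under 1 FPKM in all 8 columns. By Pearson's r of log2(FPKM + 0.1) over the 8 values, the genes most like Mybl1 among 14079 compared were Ift80 (r = 0.9938), Zranb3 and Wwc2. Such an r, here and below, is a description over 8 values from separately normalised tables, and it is led by the gap between whole testis and spermatocytes.

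Most of the 14 piRNA pathway genes listed as working under MYBL1 were also higher in the pachytene than in the leptotene/zygotene table. For 12 of the 14, both pachytene values as deposited exceeded both leptotene/zygotene values, an order held by 40.4% of all genes. Under the other scalings the share of all genes was 22.7% and 50.6%, and the 14 genes were not recounted there. Their median log2 difference was 1.34, against 0.20 over all genes. Piwil1, a slicer that binds piRNAs, stood at 37.2 and 24.8 FPKM in the leptotene/zygotene table and at 202 and 215 FPKM in the pachytene table. Mael, a piRNA pathway protein with the highest mean level of the list, was at 830.3 and 783 FPKM against 1019.8 and 1205 FPKM. Of the 14, 5 had all 4 spermatocyte values above all 4 whole testis values, against 23.1% of all genes, and 11 of 14 did so for pachytene alone, against 27.3%. Levels of Mov10l1, an RNA helicase of the same pathway, were highest in the pre-meiotic table, at 105.7 and 104.8 FPKM.

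Tcfl5 climbed through all 4 tables with no overlap between neighbours. The gene (chromosome 2, 180332495 to 180377413 in the deposited tables) stood at 7.21 and 4.57 FPKM at day 3, at 23.2 and 19.7 FPKM in the pre-meiotic table, at 172 and 170.5 FPKM in the leptotene/zygotene table and at 237 and 283 FPKM in the pachytene table. The pre-meiotic mean was 3.65-fold and the leptotene/zygotene mean 7.97-fold above that of the table before. A locus can hold several overlapping genes, and that of Tcfl5 also carries Col9a3, a collagen gene. Col9a3 ran in the other direction, from 12.4 and 16.3 FPKM at day 3 to 1.25 and 0.71 FPKM in pachytene. The genes most like Tcfl5 were Prkag2, Cox7b2 and Mael, with r from 0.9989 to 0.9993, so a gene of the piRNA list was among the 3 nearest.

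Promoter bases from RefSeq (build GRCm38.p6) are shown for Tcfl5 and Sox30, because MYBL1 is itself a member and a sequence it can recognise is short enough to search. Each sequence is the 250 bases before the RefSeq start of the gene, written 5′ to 3′ on the gene's strand, and capitals mark each match to the MYB core AACNG on either strand.
Tcfl5: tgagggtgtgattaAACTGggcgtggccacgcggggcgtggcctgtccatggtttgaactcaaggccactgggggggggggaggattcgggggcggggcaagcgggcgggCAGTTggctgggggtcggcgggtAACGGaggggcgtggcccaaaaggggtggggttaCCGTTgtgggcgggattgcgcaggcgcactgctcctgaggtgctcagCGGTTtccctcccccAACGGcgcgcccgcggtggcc
Sox30: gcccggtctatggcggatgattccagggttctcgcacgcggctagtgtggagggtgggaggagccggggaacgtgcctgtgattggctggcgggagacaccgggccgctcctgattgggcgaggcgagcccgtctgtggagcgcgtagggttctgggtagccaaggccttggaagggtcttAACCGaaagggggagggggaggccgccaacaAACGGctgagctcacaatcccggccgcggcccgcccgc
The Tcfl5 sequence is chr2:180642692-180642941 on the minus strand and holds 6 cores, the nearest beginning 21 bases before the start. The Sox30 sequence is chr11:45980060-45980309 on the plus strand and holds 2 cores, at 69 and 38 bases. Its RefSeq start lies 1.24 kb from the annotated edge of the gene. All 5 members whose sequences were read held a core, with 4 each in Rfx2 and Sox5 and 2 in Tbpl1. A core occurred in 74.2% of 32851 RefSeq promoters of this length, so its presence alone is common. At least 6 cores occurred in 0.740% of them, a number counted after the 6 in Tcfl5 had been seen. A match is a description of letters and not a bound site.

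Ovol1 was low in whole testis and was the least abundant member in the pre-meiotic and pachytene tables. It stood at 0.65 and 0.53 FPKM at day 3 and at 1.17 and 0.99 FPKM in the pre-meiotic table. In the spermatocyte tables it reached 20.5 and 24.4 FPKM (leptotene/zygotene) and 22.0 and 24.2 FPKM (pachytene), and these 4 values overlapped. The locus is chromosome 19, 5549137 to 5560575, the shortest of the 8. Its paralog Ovol2, another zinc finger factor, showed the same step at a higher level, from 1.597 and 1.101 FPKM at day 3 to 52.7 and 53.0 FPKM and then 70.3 and 73.2 FPKM. Ovol3 stayed under 1 FPKM throughout. The genes most like Ovol1 were Adam5 (r = 0.9996), Ccdc87 and Phf7.

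Rfx2, the X-box factor that acts on ciliary genes, was low in whole testis and higher at day 3 than in the pre-meiotic table. It stood at 6.60 and 5.72 FPKM at day 3, at 4.02 and 3.26 FPKM in the pre-meiotic table, at 145 and 135 FPKM in the leptotene/zygotene table and at 159.9 and 136 FPKM in the pachytene table. It was the only member whose day 3 values both lay above its pre-meiotic values, an order held by 36.2% of all genes. The leptotene/zygotene mean was 38.5-fold above the pre-meiotic mean, and the 2 spermatocyte tables overlapped. The locus is chromosome 17, 56915320 to 56970431. The genes most like Rfx2 were Cmtm2a, Prss47 and Asrgl1, with r of at least 0.9985.

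Members of the RFX family differed in their courses. Rfx4 had the widest step, from 0.076 and 0.14 FPKM at day 3 to 103.7 and 67.1 FPKM in the leptotene/zygotene table and 88.9 and 68.2 FPKM in the pachytene table. Rfx3 went from 2.93 and 2.20 FPKM to 38.0 and 30.8 FPKM and then 18.6 and 13.2 FPKM, and Rfx1 from 13.0 and 12.4 FPKM to 34.3 and 28.5 FPKM and then 22.8 and 14.4 FPKM. In these 2 genes, unlike Rfx2, both leptotene/zygotene values exceeded both pachytene values. Rfx7 was instead highest in the pre-meiotic table, at 27.4 and 28.4 FPKM, against 17.2 and 8.89 FPKM at day 3. It was lower in the spermatocyte tables, at 3.92 and 3.63 FPKM (leptotene/zygotene) and 6.71 and 6.91 FPKM (pachytene). Rfx5, a factor of immune gene promoters, stood at 13.5 and 6.61 FPKM at day 3, at 4.45 and 3.54 FPKM in the leptotene/zygotene table and at 11.06 and 11.7 FPKM in pachytene, so its pachytene values lay within its whole testis range. Rfx2 was the most abundant of the 6 RFX genes in both spermatocyte tables, but not in whole testis.

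Of 24 ciliary genes listed under RFX factors, 18 had all 4 spermatocyte values above all 4 whole testis values, against 23.1% of all genes. For pachytene alone 21 did so, against 27.3%. As deposited, both pachytene values exceeded both leptotene/zygotene values in 20 of the 24, an order held by 40.4% of all genes. The median log2 difference between these tables was 0.55 for the list, against 0.20 over all genes. The 24 genes were not recounted under the other scalings, where the share of all genes was 22.7% and 50.6%. The radial spoke gene Rsph1 went from 5.01 and 4.08 FPKM at day 3 to 576 and 509 FPKM and then to 1132 and 1219 FPKM. Ift46 and Ift140, genes of intraflagellar transport, reached 826 and 869.6 FPKM and 491 and 560.2 FPKM in pachytene. The median log2 difference between spermatocyte and whole testis means was 2.27 for the list, against -1.30 for all genes, and 2.42 against -1.17 for pachytene alone. Spag6, a gene of the axoneme, is both on this list and among the pachytene markers.

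**Figure D3:**
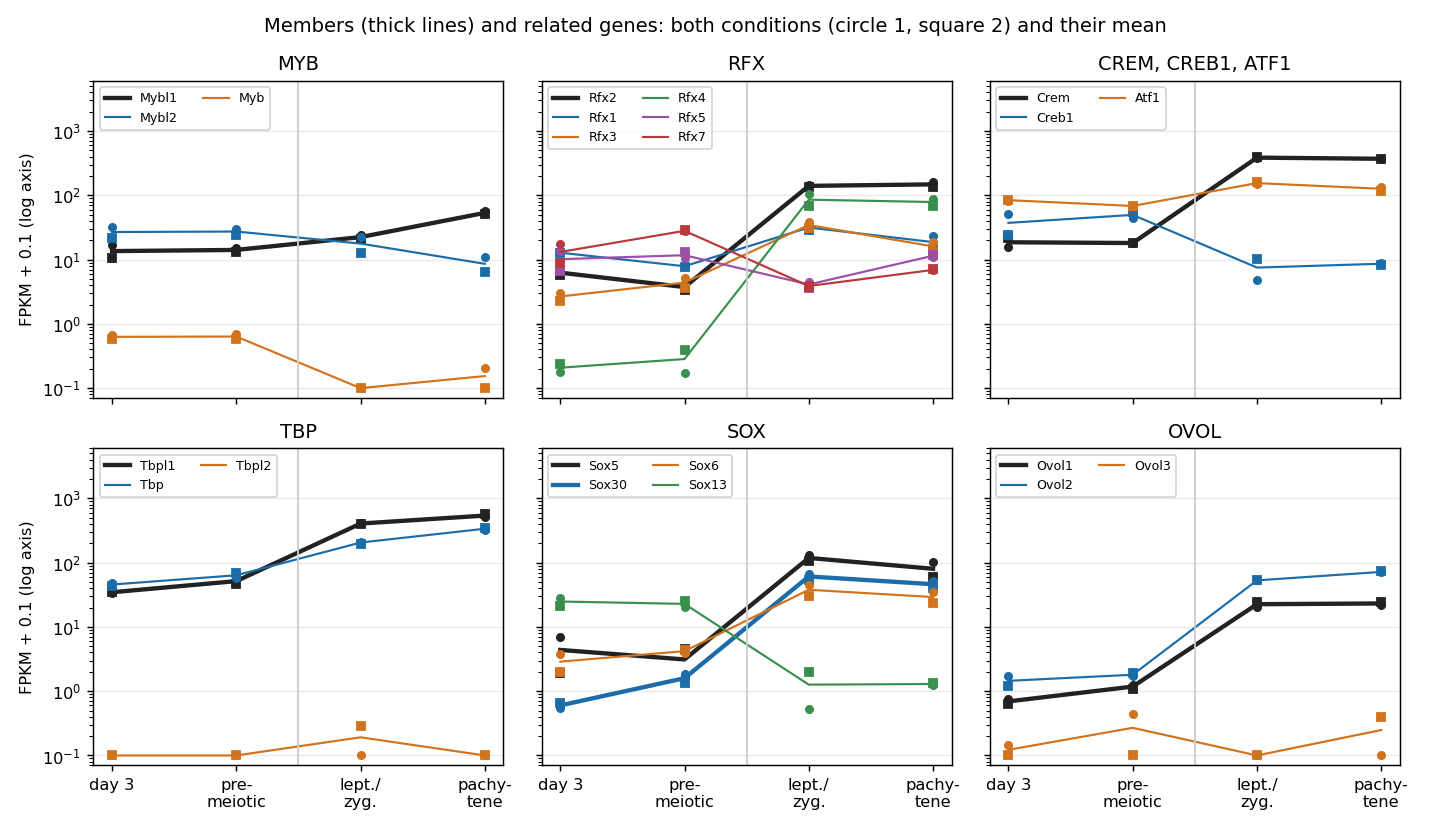
FPKM + 0.1 (log axis) of the members (thick lines) and related genes in the 4 tables, with circles for condition 1, squares for condition 2 and lines through their means. Rfx2 and Rfx4, Ovol1 and Ovol2, and Tbpl1 and Tbp are higher to the right of the grey line, whereas Creb1, Sox13 and Rfx7 are lower. Mybl2 is lower there by its means only, as its leptotene/zygotene values overlap those of day 3.

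Sox5 had the largest differences between the conditions in 3 of the 4 tables. It stood at 6.75 and 1.83 FPKM at day 3, at 1.65 and 4.38 FPKM in the pre-meiotic table, at 129.6 and 107 FPKM in the leptotene/zygotene table and at 101 and 59.1 FPKM in the pachytene table. The 2 whole testis tables overlapped, and both leptotene/zygotene values lay above both pachytene values. Sox6, its close paralog, was also higher in the spermatocyte tables, at a lower level. It stood at 3.67 and 1.89 FPKM at day 3, at 3.89 and 4.30 FPKM in the pre-meiotic table, at 45.0 and 30.6 FPKM in the leptotene/zygotene table and at 34.7 and 23.4 FPKM in pachytene, and the last 2 tables overlapped. Sox13, of the same SOX subgroup, went from 28.5 and 21.0 FPKM at day 3 to 1.14 and 1.25 FPKM in pachytene. The genes most like Sox5 were Cmklr1 (r = 0.996), Tnfaip2 and Kcnip4.

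The Sox5 locus is the longest of the 8, at 953.6 kb (chromosome 6, 143776945 to 144730497 in the deposited tables), and holds 6 other gene rows. Of these, 4933425H06Rik, an uncharacterised transcript singled out after its values were seen, was at or under 0.050 FPKM in all 4 whole testis columns. It stood at 26.2 and 13.6 FPKM in the leptotene/zygotene table and at 13.6 and 6.16 FPKM in the pachytene table, lower in condition 2 of both, as Sox5 was. Strand is not stated for these libraries, so reads of overlapping genes at this locus cannot be told apart. FPKM per gene also does not separate long from short Sox5 transcripts.

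The RefSeq start for Sox5 lies 835.2 kb inside the annotated gene, and its 250 upstream bases are shown with those of Rfx2 because both carry an RFX half-site. Capitals mark the half-site GTTGCC on either strand.
Rfx2: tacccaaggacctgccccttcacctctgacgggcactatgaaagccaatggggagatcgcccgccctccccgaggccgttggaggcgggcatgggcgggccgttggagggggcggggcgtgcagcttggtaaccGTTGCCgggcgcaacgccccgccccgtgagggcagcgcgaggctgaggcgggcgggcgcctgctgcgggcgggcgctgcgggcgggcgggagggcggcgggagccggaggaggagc
Sox5: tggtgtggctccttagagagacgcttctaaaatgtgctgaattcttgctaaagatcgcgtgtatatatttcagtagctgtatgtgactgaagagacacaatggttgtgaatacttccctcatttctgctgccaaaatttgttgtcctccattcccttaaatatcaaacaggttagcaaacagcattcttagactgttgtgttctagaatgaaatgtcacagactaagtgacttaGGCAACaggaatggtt
Rfx2 is chr17:56831009-56831258 and Sox5 is chr6:143947107-143947356, both GRCm38.p6 and both on the minus strand. The half-site begins 116 bases before the Rfx2 start and 16 bases before the Sox5 start. It was found in these 2 of the 5 members whose sequences were read (Tcfl5, Rfx2, Sox5, Sox30 and Tbpl1), and in 10.4% of 32851 promoters. In both sequences it overlaps a match to the MYB core. Base composition differed widely, with 76% G and C in the Rfx2 sequence and 39.6% in that of Sox5. The CRE half-site TGACG was found in Rfx2 only, 224 bases before its start, and occurred in 17.8% of promoters. None of the 5 held the full CRE TGACGTCA (1.55% of promoters), the E-box CACGTG (6.02%) or, on the gene's strand, TATAAA (7.59%).

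Sox30, which starts the round spermatid programme, had the largest step of the 8 genes. It stood at 0.45 and 0.55 FPKM at day 3, at 1.72 and 1.26 FPKM in the pre-meiotic table, at 67.3 and 54.5 FPKM in the leptotene/zygotene table and at 52.5 and 39.6 FPKM in the pachytene table. Day 3 and pre-meiotic values did not overlap, nor did those of the 2 spermatocyte tables, where leptotene/zygotene was higher. The locus is chromosome 11, 45793812 to 45831496. The genes most like it were Zdhhc11 (r = 0.9996), Hsfy2 and Atp6v1e2. Hsfy2, a heat shock factor relative in the list of other regulators, was listed at 0 at day 3 and stood at 93.5 and 60.9 FPKM in the leptotene/zygotene table.

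Crem differed by at most 1.02-fold between the conditions outside day 3. It stood at 15.7 and 21.3 FPKM at day 3, at 18.2 and 17.8 FPKM in the pre-meiotic table, at 382 and 389 FPKM in the leptotene/zygotene table and at 369 and 372 FPKM in the pachytene table. The whole testis tables overlapped, and the leptotene/zygotene mean was 21.4-fold above the pre-meiotic mean. Gene-level FPKM does not separate activator from repressor transcripts of Crem. Creb1, the broadly expressed relative, ran the other way, with 44.2 and 54.8 FPKM in the pre-meiotic table and 8.90 and 8.12 FPKM in pachytene, although the authors' deposited table marks its test as failed in both whole testis tables. Atf1, the third gene of this family, stood at 82.0 and 85.9 FPKM at day 3 and at 134 and 119 FPKM in pachytene. The genes most like Crem were Sept12, Armc4 and Lrrc50, with r of at least 0.9989.

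Fhl5, Kif17 and most listed targets of CREM stood higher in the table labelled leptotene/zygotene than in the pachytene table. Fhl5, a coactivator of CREM in spermatids, stood at 2.97 and 0.80 FPKM at day 3, at 212 and 147 FPKM in the leptotene/zygotene table and at 100.01 and 67.9 FPKM in pachytene. Kif17, the kinesin that moves this coactivator, stood at 273 and 293 FPKM in the former and at 114 and 79.3 FPKM in the latter. Of 12 spermatid genes listed under CREM, all 12 were higher in the 4 spermatocyte values than in whole testis, and all 12 for pachytene alone, against 23.1% and 27.3% of all genes. In 10 of the 12 both leptotene/zygotene values exceeded both pachytene values, an order held by 20.1% of all genes, with a median log2 difference of -2.36 for pachytene minus leptotene/zygotene. Crem itself differed by -0.059 on the same scale. Ldhc had the reverse order, at 4507 and 4116 FPKM against 5421 and 5408 FPKM in pachytene, and Acr overlapped. Under the other scalings the share of all genes with leptotene/zygotene higher was 36% and 12.8%, and the 12 genes were not recounted there. Tnp1, a transition protein gene, stood at 15006 and 17166 FPKM against 2258 and 2712 FPKM. Of these 12 genes, 8 are also on the spermatid marker list that set the leptotene/zygotene label in doubt.

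Tbpl1 was the most abundant member in every table. It stood at 34.0 and 35.1 FPKM at day 3, at 57.4 and 45.6 FPKM in the pre-meiotic table, at 409.8 and 402 FPKM in the leptotene/zygotene table and at 517 and 563 FPKM in the pachytene table. No pair of tables overlapped. Tbp followed with 48.3 and 42.8 FPKM at day 3 and 325 and 348 FPKM in pachytene, so Tbp was above Tbpl1 at day 3 and below it in both spermatocyte tables. Tbpl2, the form of the oocyte, was at or near 0 in all columns. Gtf2a1l, the germ cell form of the TFIIA subunit that works with TBP family proteins, went from 0.27 and 0.15 FPKM at day 3 to 267 and 247 FPKM in pachytene. Taf7l, a germ cell subunit of TFIID, had another course, with its highest values in the pre-meiotic table at 194 and 138 FPKM. The Tbpl1 locus (chromosome 10, 22364817 to 22451744) also carries Slc2a12, a sugar transporter gene, which stayed under 4 FPKM in every column. Genes most like Tbpl1 were Mdh1b, Ankar and Svip, with r of at least 0.9994.

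The order of the 2 spermatocyte tables differed between members and depended on the scaling. As deposited, Mybl1, Tcfl5 and Tbpl1 had both pachytene values above both leptotene/zygotene values, an order held by 40.4% of all genes. Sox5, Sox30 and Crem had the reverse order, held by 20.1%, and Ovol1 and Rfx2 overlapped. After each column was divided by its median over 10413 genes at 1 FPKM or more in all 8 columns, Mybl1 alone kept the first order, and the second held 5 members. Of all genes, 22.7% then had the first order and 36% the second. When each column was rescaled to the same sum, 6 members had the first order and none the second, against 50.6% and 12.8% of all genes. Mybl1 was the only member higher in pachytene without overlap under each of the 3 scalings. The median log2 difference between pachytene and leptotene/zygotene over the 10413 genes was 0.42 as deposited, -0.062 after median scaling and 0.76 after sum scaling. Spermatid markers made up 5.84% and 6.58% of the summed FPKM in the leptotene/zygotene columns and 1.198% and 1.493% in the pachytene columns, and their part in these orders was not tested. Sum scaling also put Mybl1 among the overlapping genes in the comparison of spermatocytes with whole testis, leaving 7 of 8, against 22.1% of all genes.

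Between day 3 and pre-meiotic testis, 4 members were higher in the pre-meiotic material with no overlap: Tcfl5, Ovol1, Sox30 and Tbpl1. This order was held by 30.3% of all genes. After median scaling the same 4 held it, against 28.1% of all genes. With equal sums 6 members held it, Mybl1 and Crem being added, against 52.5%. Marker RNA of differentiating and early meiotic germ cells was higher in the pre-meiotic table, with Stra8 at 124 and 78.6 FPKM against 2.15 and 1.99 FPKM at day 3. Whether a difference in cells accounts for the order of these genes was not tested.

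Within the tables, 3 of 8 members were called at day 3 at the authors' q of at most 0.05, against 14.8% of 24020 genes tested there. All 3 were lower in condition 2, the direction of 2395 of the 3547 calls. For Sox5 the authors' deposited table gives a log2 fold of -1.89, with q = 7.2e-09 and an implied error of 0.29. The implied error is the ratio of the log2 fold to its test statistic, without sign, and it covers the authors' model of 2 libraries only. In the authors' deposited table Mybl1 has a log2 fold of -0.67 ± 0.20 (implied error) with q = 0.0081, and Tcfl5 one of -0.66 ± 0.21 with q = 0.016. Crem lay just outside the threshold in the other direction, with 0.44 ± 0.17 and q = 0.058 in the authors' deposited table. At a 2-fold difference, 1 member (Sox5) passed at day 3, where 11.6% of 17706 genes with at least 1 FPKM did. The germ cell markers called at day 3 were lower in condition 2 as well. Of 10 markers of undifferentiated spermatogonia, 6 were called lower and none higher, beside the same 14.8%. These 10 genes summed to 121 and 67.8 FPKM. Of 11 leptotene and zygotene markers, 4 were called lower and none higher. Others of the 11 were higher in condition 2 without a call, such as Rec8 at 2.58 and 4.02 FPKM. The 12 pachytene markers summed to 39.0 and 48.0 FPKM, with 1 called lower. Somatic markers were called in both directions, with 2 lower and 1 higher of 6 Leydig cell markers and 2 higher of 4 macrophage markers. The part of germ cell or somatic cell content in the calls at day 3 was not tested.

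Differences at day 3 also varied with the span of the locus across all genes. The median log2 difference was 0.26 for 7467 genes whose locus spans under 20 kb, -0.084 for those of 20 to 100 kb, -0.27 for those of 100 to 300 kb and -0.15 for 801 loci of 300 kb or more. In the longest class 207 genes were called lower in condition 2 and 29 higher. Sox5 is in that class, and Mybl1 and Tcfl5, with loci of 32.8 and 44.9 kb, are in the second. Crem, at 100.8 kb, went against the median of its class. The same medians in the pachytene table ran from 0.070 to -0.053. The part of locus span in the 3 calls was not tested.

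**Figure D4:**
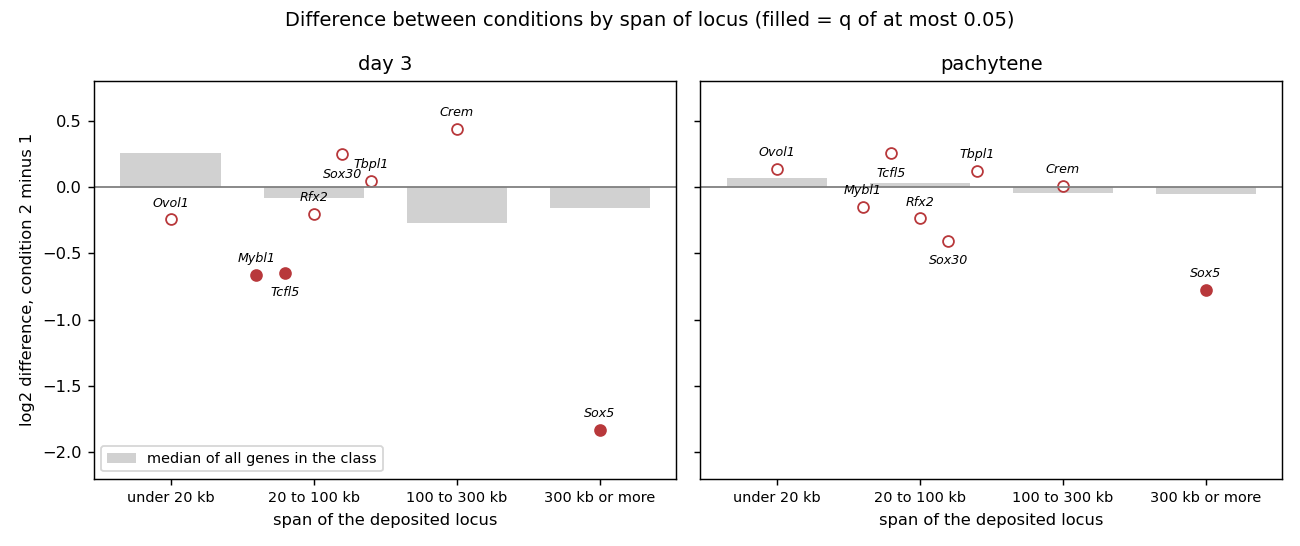
Log2 difference between conditions (condition 2 minus 1, on FPKM + 0.1) in the day 3 and pachytene tables, by span of the deposited locus. Grey bars are medians over all tested genes of a class and points are members, filled where q is at most 0.05; Sox5 at day 3 lies at -1.83, far below the bar of its class at -0.15.

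No member was called in the pre-meiotic table, where 1.15% of 20154 genes were, or in the leptotene/zygotene table, where 2.14% were. In the pre-meiotic table the lowest p-value of the 8 in the authors' deposited table was 0.056 (Tbpl1), and in the leptotene/zygotene table it was 0.055 (Sox5). Sox5 was past a 2-fold difference in the pre-meiotic table, with 2.56-fold more in condition 2, but the authors' deposited table gives it q = 0.57 and an implied error of 0.84 on a log2 fold of 1.41. That table had 8.7% of genes past 2-fold. No member was past 2-fold in the leptotene/zygotene table, where 13.8% of genes were, or in the pachytene table, where 10.6% were.

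A single member was called in the pachytene table, again Sox5, against 1.63% of 22322 genes. Its 101 and 59.1 FPKM correspond in the authors' deposited table to a log2 fold of -0.78 ± 0.23 (implied error) with q = 0.044, close to the threshold. Sox30 was also lower in condition 2 of that table, but its log2 fold of -0.41 ± 0.24 in the authors' deposited table had q = 0.55. Tcfl5 was higher, with 0.26 ± 0.12 and q = 0.38 in the authors' deposited table. The other 5 members differed by at most 1.18-fold between the conditions.

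Spermatid markers moved in both directions in the pachytene table. Of the 14 markers, 8 were lower and 6 higher in condition 2. Acrv1, an acrosome gene, stood at 197 and 116 FPKM and Catsper1, a sperm ion channel gene, at 68.0 and 40.6 FPKM. Prm1 ran the opposite way, at 1074 and 1712 FPKM. Neither Acrv1, Catsper1 nor Prm1 was called at the authors' threshold, and their part in the Sox5 call was not tested. Smooth muscle markers were also higher in condition 2 of both spermatocyte tables, at 7.84 and 33.5 summed FPKM (leptotene/zygotene) and 11.5 and 26.7 (pachytene). Stroma markers were higher in condition 2 as well, at 8.07 and 21.2 summed FPKM and at 2.52 and 9.43, and so were endothelium markers, at 2.21 and 5.85 and at 2.01 and 8.05. Of 11 leptotene and zygotene markers, 4 were called lower in condition 2 of the pachytene table and none higher, beside 1.63% of all genes. The 4 were Sycp1, Sycp2, Smc1b and Tex15, and the median log2 difference of the 11 was 0.092. The part of these cell types and markers in the Sox5 call was not tested.

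**Figure D5:**
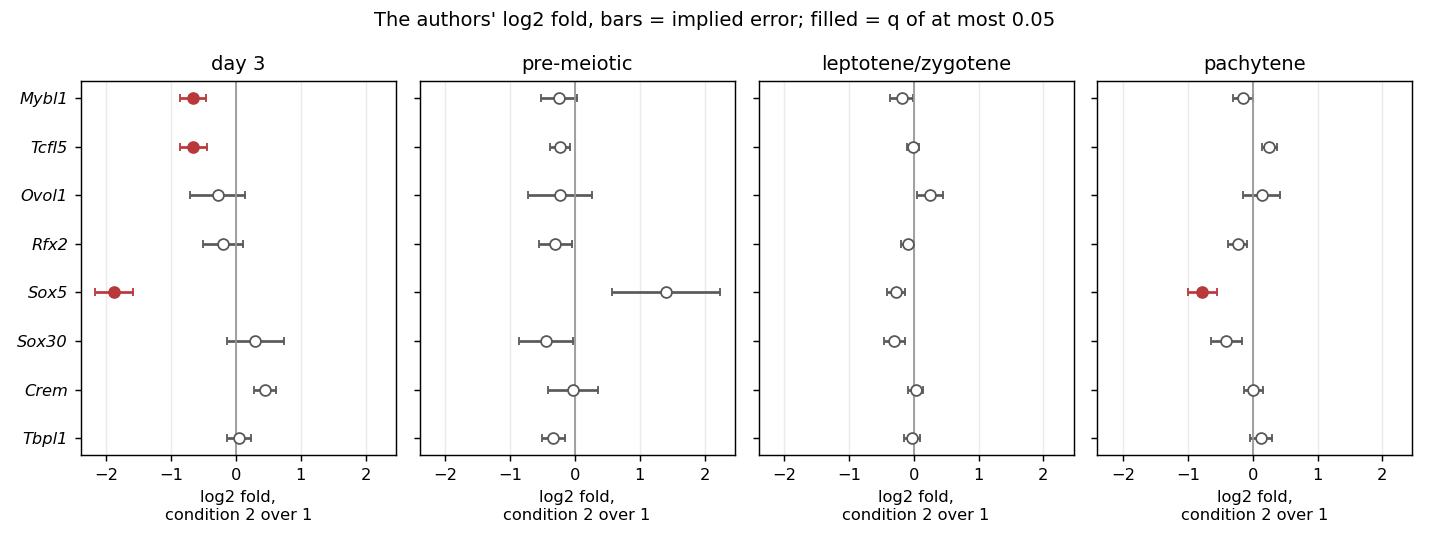
The authors' log2 fold of condition 2 over condition 1 for each member and table, with the implied error as bars and filled points where q is at most 0.05. Filled points are Mybl1, Tcfl5 and Sox5 at day 3 and Sox5 in pachytene; no order of conditions is shared between tables by any label.

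Related genes called at day 3 were also lower in condition 2. Of 16 tested paralogs and partners, 6 were lower and none higher in condition 2 at day 3: Mybl2, Rfx5, Rfx7, Fhl5, Sox6 and Sox13. Of all genes tested there, 14.8% were called in either direction. The median log2 difference of the list was -0.47, against 0.047 over all genes. In the authors' deposited table Sox6 had q = 0.00026 at day 3, q = 0.044 in the leptotene/zygotene table and q = 0.14 in pachytene, lower in condition 2 each time. In the pre-meiotic table Taf7l was the only gene of the list called, and in the pachytene table it was Kif17. In the authors' deposited table Fhl5 was called lower in the leptotene/zygotene table with q = 0.00042.

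Among the 14 piRNA pathway genes, 6 were called lower and none higher at day 3: Piwil1, Piwil2, Piwil4, Tdrd1, Tdrd3 and Tdrd9. The share of all genes called there in either direction was 14.8%. Tdrd1, a tudor protein, stood at 5.84 and 2.46 FPKM. Piwil1 was the only one called in the leptotene/zygotene table, and Tdrkh the only one in the pre-meiotic table. None of the 14 was called in pachytene. No gene of the 12 under CREM was called in any table. Of the 24 ciliary genes, 2 were called higher and 5 lower at day 3, beside the same 14.8%, and none in the other tables. Of these, Bbs7 stood at 16.8 and 8.29 FPKM and Dnaic2 at 2.30 and 0.98 FPKM.

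Other regulators of male germ cells, 35 genes in all, varied in their courses. Of these, 12 had all spermatocyte values above all whole testis values, an order held by 23.1% of all genes, and 14 had the reverse order, held by 45.1%. For pachytene alone the counts were again 12 and 14, against 27.3% and 48% of all genes. Ybx2, an RNA- and DNA-binding protein with the highest mean level of the list, reached 2345 FPKM in condition 2 of the pachytene table, from 11.5 FPKM in condition 1 at day 3. Spz1 peaked in the leptotene/zygotene table at 1905 and 2376 FPKM, and Dmrtb1 in pachytene at 622 and 665 FPKM. At day 3, 7 of 32 tested were called lower in condition 2 and none higher, beside 14.8% of all genes called in either direction, among them Nr2c2 (30.7 and 7.77 FPKM) and the spermatogonial factor Zbtb16 (3.94 and 1.098 FPKM). In pre-meiotic testis 4 of 34 tested were called, against 1.15% of all genes, all lower: Stra8, Prdm9, Taf4b and Ctcfl. Of 11 leptotene and zygotene markers, Prdm9 among them, 8 were called lower in that table and none higher, with a median log2 difference of -0.66. The part of early meiotic cells in the 4 calls was not tested. Nr6a1, an orphan nuclear receptor, was called lower in condition 2 in 3 tables, at 79.6 and 52.1 FPKM in pachytene.

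Ago4, listed under its older symbol Eif2c4, was used for no assignment of genotype. It stood at 0.90 and 1.23 FPKM at day 3, at 2.53 and 3.34 FPKM in the pre-meiotic table, at 1.67 and 3.26 FPKM in the leptotene/zygotene table and at 4.37 and 12.1 FPKM in the pachytene table. The authors' deposited table calls the last 2 differences, with q = 0.039 and q = 0.00015.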

How the data were processed

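Per the labels' protocols, RNA was extracted with Trizol and a TruSeq RNA kit was used for mRNA libraries. The submitters' processing notes name Cuffdiff, Cufflinks 1.1.0, Bowtie 0.12.7 and TopHat 1.3.0. No source used here names the genome build. Per the file headers, the authors deposited FPKM per condition, a log2 fold, a test statistic (a score), a p-value and a q-value for each gene, and none of these was recomputed. The members and gene lists were chosen with earlier results of these data known.

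Differences were computed as log2(FPKM + 0.1) of condition 2 minus condition 1. A call means a q-value of at most 0.05 in the authors' deposited table, and a 2-fold difference needed 1 FPKM in either condition. Orders of tables count genes whose values do not overlap. Named genes are all members, their paralogs and partners, up to 4 called genes per table and the 3 most abundant of each other list, the 3 genes most like each member, and Ago4. Python 3.11.15, pandas 2.3.3 and numpy 2.4.6 were used, and the difference and order scripts were tested on simulated data. Alternatives were other pseudocounts, floors, thresholds and scalings. Small RNA was left out because it does not measure these genes. Depth is unknown, as no counts are given.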

Additional observations from a re-analysis of the deposited data

How the results depend on the processing

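Of 128 differences recomputed with another pseudocount, with scaling to the median within the table or with the authors' log2 fold, 126 kept their sign. None of the 4 called differences changed sign. Sox5 at day 3 was -1.45 with a pseudocount of 1. At q of at most 0.01 the pachytene table had 0 members called and day 3 had 2, without Tcfl5. At q of at most 0.1 the day 3 table had 4, with Crem. With a floor of 5 FPKM the pre-meiotic table had 0 members past 2-fold. Shares of all genes were not counted at these thresholds or this floor, so these counts stand without a background.

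Counts of orders changed more with the scaling of the 8 columns. Pachytene above leptotene/zygotene held for 1 member after median scaling, 6 after scaling to equal sums and 5 from condition 1 alone. The shares of all genes with this order were 22.7%, 50.6% and 56.8%, so the share moved with the scaling over all genes as well. The reverse order held for 5 members after median scaling and 0 after scaling to equal sums, against 36% and 12.8% of all genes. Day 3 above pre-meiotic held for 0 members with equal sums, 3 from condition 1 alone and 2 from condition 2 alone. Over all genes the shares were 18.1%, 51.5% and 50.1%. Pre-meiotic above day 3 held for 6, 5 and 6 members in these settings, against 52.5%, 43.5% and 44.3% of all genes. The pachytene minus leptotene/zygotene log2 difference turned to 0.28 for Crem with equal sums and to -0.079 for Tbpl1 with median scaling. Beyond the construction of each scaling, the cause was not tested. The alternatives from a single condition and without the leptotene/zygotene table were chosen after seeing the data. Spermatocytes above whole testis held for 8 members in all 3. Among all genes this order held for 26.9% from condition 1, 25.5% from condition 2 and 27.3% without the leptotene/zygotene table. No paired analysis was possible because each condition has 1 library per table. Leaving out a replicate was likewise not possible.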
